A study of Mus musculus with 24 samples.

Results

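The transcripts described here encode 9 surface proteins that mark an activated T cell or take part in costimulation: Cd69, Tfrc, Cd44, Icos, Tnfrsf4, Tnfrsf9, Tnfrsf18, Cd40lg and Cd83. They were taken by symbol, and all 9 were found among the 46981 mouse gene identifiers of the RPM table (reads scaled to 1000000 per library). Each matched a single Ensembl identifier, and all 9 passed the filter on low values used for testing (1 RPM or more in 3 or more of a fit's libraries).

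A naive T cell that meets antigen needs a signal through its receptor and a second, costimulatory signal through CD28, and it then rebuilds its surface. CD69 appears early and holds the cell in the tissue by pairing with the egress receptor S1PR1, the transferrin receptor (Tfrc) brings in iron for growth, and CD44 binds hyaluronan and stays high on memory cells. ICOS and the TNF receptor family members OX40 (Tnfrsf4), 4-1BB (Tnfrsf9) and GITR (Tnfrsf18) give further costimulatory signals, CD40 ligand (Cd40lg) lets the helper cell act on B cells and dendritic cells, and CD83 is best known as a maturation marker of dendritic cells.

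The study asked what loss of Acly, which makes acetyl-CoA from citrate in the cytosol, or of Pdha1, a subunit of the pyruvate dehydrogenase complex, does to T cell activation. RNA came from mouse CD4 T cells in 2 cohorts of 12 libraries, with 3 libraries in each of 8 groups. The Acly cohort held CD4-Cre Acly fl/fl cells (Acly KO) and wild type cells, and the Pdha1 cohort held Pdha1 fl/fl CD4CreERT2 cells (Pdha1 KO) and wild type cells. Each genotype was sampled after CD3/CD28 treatment for 24 h (activated) and without treatment (resting). Serum at 15% and glutamine at 2 mM are listed for all 24 libraries. CD4-Cre acts from thymic development on in every cell that has expressed CD4, while CreERT2 needs induction by tamoxifen, for which the labels give no schedule. The labels do not say whether replicates came from separate animals, so p-values measure only the spread between libraries.

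Depth ranged from 388902 to 1087675 recovered counts per library, and 3 counts, the floor that a count of 0 allows, were worth 2.03 to 6.83 RPM. Floors and counting intervals cover counting error only. Acly itself stood at 10.6 to 15.0 RPM in activated Acly KO libraries and 104 to 111 RPM in activated wild type libraries of that cohort. Pdha1 stood at 19.996 to 30.4 RPM in activated Pdha1 KO libraries, against 84.7, 40.8 and 5.35 RPM in wild type activated libraries 1, 2 and 3 of that cohort. At rest Acly was at 1.06 to 8.0005 RPM in Acly KO and 5.80 to 9.87 RPM in wild type libraries. Pdha1 was at 7.33, 0 and 25.9 RPM in resting Pdha1 KO libraries 1, 2 and 3 and at 3.14 to 6.78 RPM in resting wild type libraries of that cohort, so resting levels gave no check of the genotype labels. In activated libraries Acly separated the genotypes of its cohort. Pdha1 did not, since its activated Pdha1 KO values lay inside the range of wild type activated libraries. Activated Acly-cohort libraries had Cd4 at 161.9 to 298.1 RPM and Trac at 296.0 to 436.0 RPM. The CD4 T cell marker list (9 genes) summed to 1346 to 1938 RPM there and 294 to 629 RPM in resting libraries of that cohort. In the Pdha1 cohort it summed to 239 to 1149 RPM in activated and 105 to 859 RPM in resting libraries. Itgax and Cd14, markers of dendritic cells and monocytes, were at 0 to 0.880 RPM in activated Acly-cohort libraries. Other genes of that marker list gave signal, with Xcr1 at 6.04 to 11.98 RPM, Csf1r at 7.94 to 12.8 RPM, Siglech at 2.37 to 5.98 RPM and Ccr7, which T cells carry too, at 88.8 to 144 RPM.

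Signal from genes of other cell types differed between states and cohorts. Receptor genes of smell and pheromone neurons (Olfr and Vmn, 1450 genes) have no known use in T cells. Summed, they took 30009 to 40831 RPM in activated and 95039 to 109181 RPM in resting libraries of the Acly cohort. Floors do not cover signal of this kind, so a low level above the floor does not by itself show expression. Summed globin and other erythroid transcripts (7 genes) reached 1198 RPM at most in that cohort but 597 to 32781 RPM in the Pdha1 cohort. In the Pdha1 cohort, 3 libraries stood apart from their groups. The library labelled Pdha1 KO resting 3 had 66035 RPM of receptor-gene signal, against 104047 and 107772 RPM in the other two of its group. The library labelled wild type activated 3 had 105016 RPM, against 26265 and 71983 RPM in wild type activated 1 and 2. Wild type activated 1 was the shallowest library of all. Whether the labels of Pdha1 KO resting 3 and wild type activated 3 were exchanged was not tested, and no library was given another label. Results of this cohort are given with all 12 libraries, without Pdha1 KO resting 3 and wild type activated 3 (10 libraries), and also without wild type activated 1 (9 libraries).

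The 9 genes lie on 7 chromosomes, with 3 of the TNF receptor genes on chromosome 4. Tnfrsf4 (ENSMUSG00000029075, chr4:156013843-156016612) and Tnfrsf18 (ENSMUSG00000041954, chr4:156026164-156028895) are neighbours on the plus strand of GRCm38, 9551 bp apart, and Tnfrsf9 (ENSMUSG00000028965, chr4:150914562-150946102) is on the same strand. Promoter windows of these 3 receptors are shown because all 3 genes rose with activation in the values below, and because NFAT, AP-1 and NF-kappaB are the factors that T cell receptor and CD28 signals switch on. RefSeq's table for GRCm38.p6 held windows for 5 of the 9 genes (Cd44, Tfrc, Tnfrsf4, Tnfrsf9 and Tnfrsf18; not for Cd69, Icos, Cd40lg or Cd83). The 250 bases before the start site are printed on the gene's strand, with capitals for the NFAT core GGAAA, the AP-1 site TGANTCA and the NF-kappaB consensus, each searched on both strands. The Tnfrsf9 window is chr4:150927749-150927998 (the second of its 2 listed start sites, printed because it holds all 3 motifs), the Tnfrsf4 window chr4:156013445-156013694 and the Tnfrsf18 window chr4:156026072-156026321.
Tnfrsf9: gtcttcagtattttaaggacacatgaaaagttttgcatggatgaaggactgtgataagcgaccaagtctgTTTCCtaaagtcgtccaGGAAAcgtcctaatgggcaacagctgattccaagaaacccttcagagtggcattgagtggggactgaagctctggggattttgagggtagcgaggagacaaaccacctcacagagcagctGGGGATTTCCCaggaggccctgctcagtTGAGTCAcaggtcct
Tnfrsf4: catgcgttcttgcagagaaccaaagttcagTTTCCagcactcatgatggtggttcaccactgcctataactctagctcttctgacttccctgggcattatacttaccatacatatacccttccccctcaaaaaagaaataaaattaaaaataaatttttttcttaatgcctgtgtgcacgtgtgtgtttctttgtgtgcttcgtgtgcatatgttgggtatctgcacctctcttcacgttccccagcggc
Tnfrsf18: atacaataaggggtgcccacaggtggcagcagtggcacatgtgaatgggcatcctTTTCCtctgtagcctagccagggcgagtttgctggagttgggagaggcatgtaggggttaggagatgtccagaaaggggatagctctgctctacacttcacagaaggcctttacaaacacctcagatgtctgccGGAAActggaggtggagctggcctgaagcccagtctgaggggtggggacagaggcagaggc

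The Tnfrsf9 window printed held 3 GGAAA cores, an AP-1 match starting 15 bases before the start site and 2 overlapping NF-kappaB matches starting 43 and 42 bases before it, the last core lying inside the NF-kappaB matches. The window of the other Tnfrsf9 start site (chr4:150919905-150920154) held 2 GGAAA cores and no AP-1 or NF-kappaB match. Tnfrsf4 held 1 GGAAA core and Tnfrsf18 held 2, and neither had an AP-1 or NF-kappaB match in these bases. Of all 32851 RefSeq windows of the same length, 55.6% held GGAAA, 6.75% TGANTCA and 3.90% the NF-kappaB consensus, so a GGAAA match alone was the common case. Both Tfrc windows had none of the 3 motifs. A match describes letters only, and binding was not measured.

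In the Acly cohort, activation raised 8 of the 9 genes in both genotypes, and Cd40lg was the exception. Among all 31311 genes tested there, 20.7% were called higher and 26.7% lower in Acly KO, and 21.4% higher and 23.8% lower in wild type (limma on log2(RPM + 0.5), Benjamini-Hochberg adjusted p under 0.05). The median log2 change of the 9 genes was 3.52 in Acly KO and 3.30 in wild type cells, against -0.67 in Acly KO and -0.61 in wild type over all genes tested. Scaling by trimmed means moved the all-gene median to -0.39 in Acly KO and -0.29 in wild type and the split of calls to 24.5% higher and 16.5% lower in Acly KO and 24.9% higher and 14.6% lower in wild type, and the 8 genes stayed called. On recovered counts, edgeR called 8 genes in each genotype (25.5% of all genes higher in Acly KO and 25.6% in wild type). DESeq2 called 8 in Acly KO (21.8% of all genes higher) and 7 in wild type (21.3%). Levels of all 9 genes in activated and resting libraries of this cohort are plotted gene by gene.

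**Figure D1:**
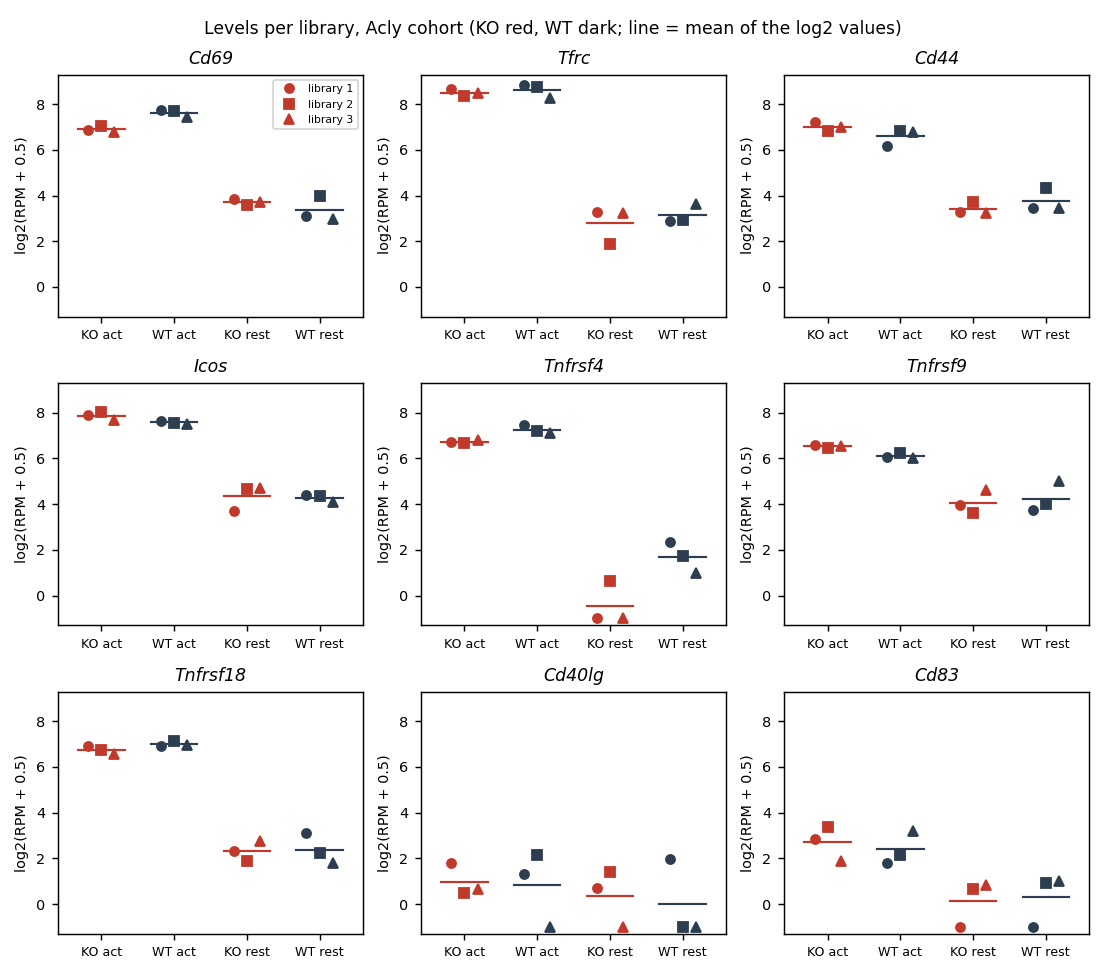
Level of each of the 9 genes as log2(RPM + 0.5) in the 12 libraries of the Acly cohort, 1 point per library by group of genotype and state, with a line at the mean of the 3 log2 values. All activated libraries lie above all resting ones for 8 genes, and Cd40lg stays at or under 3.95 RPM throughout.

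Cd69 (ENSMUSG00000030156, chr6:129267325-129275436, minus strand) reached 118, 131 and 109 RPM in activated Acly KO libraries 1, 2 and 3, against 13.7, 11.7 and 12.6 RPM in resting Acly KO libraries. In wild type it was 217, 207 and 173 RPM in activated and 8.12, 15.5 and 7.45 RPM in resting libraries. Activated and resting libraries did not overlap in either genotype, which held for 22.6% of all genes tested in Acly KO and 23.1% in wild type. The log2 change was 3.18 ± 0.29 (SE) in Acly KO and 4.27 ± 0.29 in wild type cells.

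Tfrc (ENSMUSG00000022797, chr16:32608920-32632794, plus strand) had 399.9, 328 and 363 RPM in activated Acly KO and 458, 429.7 and 309 RPM in activated wild type libraries. At rest it had 9.14, 3.19 and 8.83 RPM in Acly KO and 6.96, 7.05 and 11.9 RPM in wild type libraries. That is a log2 change of 5.71 ± 0.31 in Acly KO and 5.47 ± 0.31 in wild type cells, with no overlap. Erythroid cells also carry this receptor, and the summed erythroid markers ran from 20.3 to 543.5 RPM in activated and from 59.5 to 1198 RPM in resting libraries of the cohort. Their part in the Tfrc values was not tested.

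Cd44 (ENSMUSG00000005087, chr2:102811141-102901665, minus strand) measured 148, 114 and 127 RPM in activated Acly KO libraries and 72.4, 114 and 109 RPM in activated wild type libraries. Resting libraries had 9.14, 12.8 and 8.83 RPM in Acly KO and 10.4, 19.8 and 10.4 RPM in wild type. Its log2 change was 3.61 ± 0.31 in Acly KO and 2.85 ± 0.31 in wild type cells, again with no overlap of activated and resting libraries.

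Icos (ENSMUSG00000026009, chr1:60977927-61000320, plus strand), the CD28-related receptor for ICOS ligand, had 235, 260.3 and 207 RPM in activated Acly KO libraries and 201, 189 and 184 RPM in activated wild type libraries. Its resting levels were 12.6, 24.5 and 25.3 RPM in Acly KO and 20.9, 19.8 and 16.4 RPM in wild type. The log2 change with activation was 3.52 ± 0.27 in Acly KO and 3.30 ± 0.27 in wild type cells, with no overlap of activated and resting libraries.

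Of the 3 TNF receptor genes, Tnfrsf4 was nearly absent at rest. It was at 0, 1.06 and 0 RPM in resting Acly KO libraries, a single count in all, and at 4.64, 2.82 and 1.49 RPM in resting wild type libraries (7 counts). After activation it reached 104, 101.9 and 113 RPM in Acly KO and 177, 148 and 138 RPM in wild type libraries. Since the Acly KO resting level rests on 1 count, the ratio of summed counts scaled by depth is given: 272 in Acly KO (95% exact interval 48.5 to 10776) and 48.1 in wild type (23.2 to 120). The fitted log2 change was 7.19 ± 0.43 in Acly KO and 5.57 ± 0.43 in wild type cells.

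Tnfrsf18 had 121, 106 and 95.1 RPM in activated Acly KO libraries and 119, 140.3 and 124 RPM in activated wild type libraries. At rest it had 4.57, 3.19 and 6.30 RPM in Acly KO and 8.12, 4.23 and 2.98 RPM in wild type libraries. The log2 change was 4.41 ± 0.35 in Acly KO and 4.62 ± 0.35 in wild type cells. An antisense gene, Gm16008, overlaps 414 exonic bp of Tnfrsf18, but it had 3.02 RPM at most in any of the 24 libraries. Whether the counting used strand is not given in the sources used here.

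Tnfrsf9 had the smallest fold change of the 3 and was above the floor of 3 counts in every resting library. It had 14.9, 11.7 and 24.0 RPM in resting Acly KO and 12.8, 15.5 and 31.3 RPM in resting wild type libraries. Activated libraries had 96.6, 87.4 and 91.8 RPM in Acly KO and 67.3, 75.8 and 63.9 RPM in wild type. Its log2 change was 2.47 ± 0.32 in Acly KO and 1.87 ± 0.32 in wild type cells.

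Cd83 (ENSMUSG00000015396, chr13:43784775-43803132, plus strand) and Cd40lg (ENSMUSG00000031132, chrX:57212143-57224042, plus strand) were near the floor. Cd83 had 6.80, 9.71 and 3.21 RPM in activated Acly KO and 2.99, 3.95 and 8.81 RPM in activated wild type libraries, against at most 1.49 RPM in any resting library. The change was called in Acly KO (log2 2.55 ± 0.76, limma adjusted p = 0.0057) and in wild type cells (2.08 ± 0.76, adjusted p = 0.0234), and the wild type call was lost without wild type activated 3 (adjusted p = 0.117) or wild type resting 1 (0.136). Dendritic cells also carry CD83. Their marker list and that of macrophages (10 genes) summed to 111 to 169.8 RPM in activated and 79.9 to 133 RPM in resting libraries, and of 7 tested 1 rose (Ccr7) and 5 fell in Acly KO and 1 rose (Ccr7) and 4 fell in wild type, where 26.7% of all genes fell in Acly KO and 23.8% in wild type. Their part in the Cd83 change was not tested. Cd40lg gave 3.02, 0.881 and 1.07 RPM in activated Acly KO and 1.99, 3.95 and 0 RPM in activated wild type libraries. Resting libraries had 0 to 2.13 RPM in Acly KO and 0 to 3.48 RPM in wild type. Summed over the 3 libraries of a group that is 6 counts in activated and 3 in resting Acly KO cells, and 7 counts in activated and 3 in resting wild type cells, so a change of Cd40lg was not detectable at this depth.

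Regulatory T cells carry ICOS, OX40 and GITR without stimulation. The summed level of their markers (8 genes) was 225 to 316 RPM in activated and 73.2 to 110.0 RPM in resting libraries of the Acly cohort. Most of that sum was Il2ra, which activation also induces in other T cells, at 172 to 225 RPM in activated Acly KO and 166 to 226 RPM in activated wild type libraries. Of the 8, 4 were called higher and 1 lower in Acly KO, and 3 higher and 0 lower in wild type, where 20.7% of all genes were called higher in Acly KO and 21.4% in wild type. Foxp3, their defining factor, stood at 20.4 to 39.0 RPM in activated and 0 to 4.57 RPM in resting Acly KO libraries, and at 15.9 to 24.5 RPM in activated and 0 to 4.47 RPM in resting wild type libraries. Fitted changes were above 0 for 4 of the 8 markers in Acly KO and 7 of the 8 in wild type. In Acly KO, Ikzf2 was at 20.4 to 31.9 RPM in activated and 24.5 to 33.2 RPM in resting libraries. Lrrc32 was at 2.64 to 4.53 RPM in activated and 8.83 to 12.6 RPM in resting Acly KO libraries. The part of regulatory T cells in the rise of Icos, Tnfrsf4 and Tnfrsf18 was not tested. In bulk RNA, more cells of a type and more RNA per cell cannot be told apart.

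Loss of Acly left no call among the 9 genes in activated cells. By limma 0 of 9 were called between Acly KO activated and wild type activated cells, against a background of 0.00639% of all genes tested. At an unadjusted p under 0.05 there was 1 gene in limma (Cd69), 3 in edgeR (Cd69, Cd44 and Tnfrsf9) and 1 in DESeq2 (Cd69). Of all 31311 genes, 1087 were under 0.05 unadjusted in limma, 1668 in edgeR and 437 in DESeq2. Neither count model called any of the 9 after adjustment. Cd69 averaged 119 ± 10.95 RPM in Acly KO and 199 ± 23.0 RPM in wild type activated libraries (SD, n = 3 each). The highest Acly KO library, 131 RPM, lay below the lowest wild type library, 173 RPM. Its log2 difference was -0.73 ± 0.29 (limma unadjusted p = 0.0169, adjusted p = 1.00). A fit of the 2 groups alone called it (limma adjusted p = 0.0404), where 0.176% of all genes were called.

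Of the other genes, 3 had activated groups that did not overlap. Tnfrsf4 was lower in every Acly KO library (106 ± 5.59 RPM in Acly KO, 154 ± 20.4 RPM in wild type; log2 -0.53 ± 0.43). Tnfrsf9 was higher in every Acly KO library (91.9 ± 4.598 RPM in Acly KO, 69.0 ± 6.13 RPM in wild type; log2 0.41 ± 0.32), as was Icos (234 ± 26.8 RPM in Acly KO, 192 ± 8.76 RPM in wild type; log2 0.28 ± 0.27). Over all genes tested, 3.56% had Acly KO wholly above and 7.38% wholly below wild type, so 2 of 9 on each side is a larger share than the background, in a list too short to read more from. Tfrc (log2 -0.12 ± 0.31), Cd44 (0.41 ± 0.31), Tnfrsf18 (-0.26 ± 0.35) and Cd83 (0.31 ± 0.76) overlapped between genotypes. The summed level of the CD4 T cell marker list (9 genes) also differed here, at 1346 to 1389 RPM in Acly KO and 1744 to 1938 RPM in wild type activated libraries, with 9 of 9 fitted changes below 0 and none called. Whether that difference bears on Cd69 and Tnfrsf4 was not tested.

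At rest, 0 of 9 genes were called between Acly KO and wild type cells, against 0% of all genes. Unadjusted, limma, edgeR and DESeq2 each had 1 gene under 0.05, Tnfrsf4, and none was called by any of them. Over all 31311 genes, limma had 1745 under 0.05 unadjusted, edgeR 1225 and DESeq2 327. Tnfrsf4 rested on 1 count in Acly KO and 7 counts in wild type libraries, a ratio of 0.123 (95% exact interval 0.00273 to 0.956). Acly KO resting 2 and wild type resting 3 held 1 count each, so these 2 libraries differed in level by depth alone. The fitted log2 difference was -2.15 ± 0.43 (limma adjusted p = 0.0744). It was called by limma where no filter on low values was used (adjusted p = 0.00501), without Acly KO resting 2 (0.00251) and without wild type resting 3 (0.00865). Of all genes, 0.0397%, 0.0198% and 0.393% were called in these 3 fits. The other genes with a measurable resting level differed by -0.36 (Tfrc) to 0.35 (Cd69) on the log2 scale.

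Whether activation changed a gene differently in the 2 genotypes was tested as an interaction, and 0 of 9 genes were called, against 0% of all genes. Unadjusted, limma had Cd69 and Tnfrsf4 under 0.05, edgeR had Cd69, and DESeq2 had none. Over all 31311 genes, limma had 1313 under 0.05 unadjusted, edgeR 1375 and DESeq2 386. Cd69 was lowest, with an activation change smaller in Acly KO by a log2 difference of -1.08 ± 0.42 (limma adjusted p = 1.00). Tnfrsf4 was highest at 1.62 ± 0.61, and that value again rests on the single resting count in Acly KO.

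The make-up of the 9-gene sum needs no scaling between libraries. The sum itself was 1233, 1139 and 1109.7 RPM in activated Acly KO libraries and 1318, 1312 and 1110.1 RPM in activated wild type libraries, which overlapped. Within it, Cd69 made up 9.55% to 11.5% in Acly KO and 15.6% to 16.5% in wild type, and Tnfrsf4 made up 8.47% to 10.1% in Acly KO and 11.3% to 13.4% in wild type. Icos took 18.6% to 22.9% in Acly KO and 14.4% to 16.6% in wild type, Tnfrsf9 7.68% to 8.27% in Acly KO and 5.11% to 5.78% in wild type, and Cd44 9.98% to 12.04% in Acly KO and 5.49% to 9.82% in wild type. Parts of 1 sum are tied to each other, so smaller parts of Cd69 and Tnfrsf4 make the other parts larger, and Cd44 overlapped between genotypes in RPM.

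**Figure D2:**
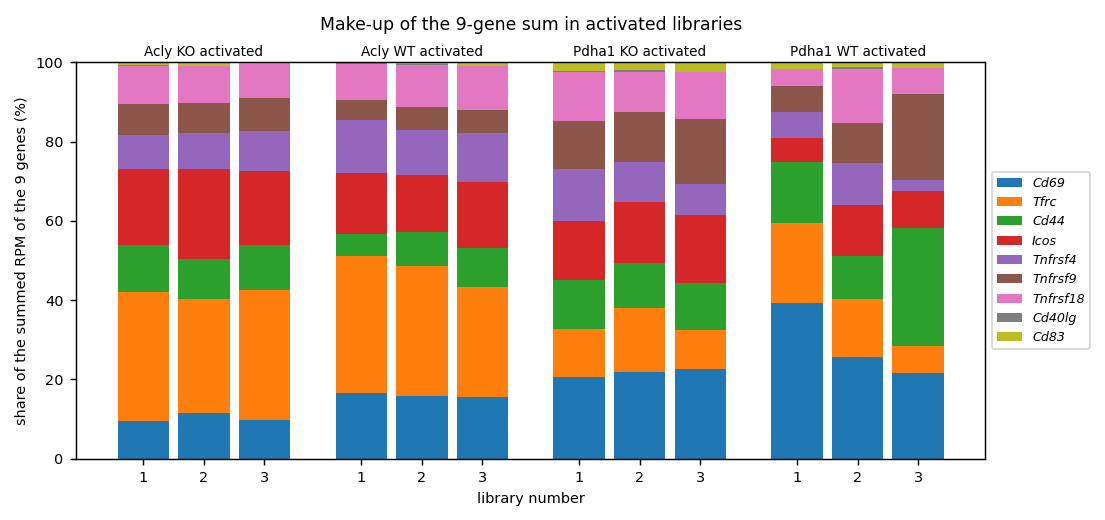
Share of the 9-gene sum of RPM taken by each gene, in percent, stacked for each of the 12 activated libraries of both cohorts. In activated Acly-cohort libraries the Cd69 part is smaller in Acly KO (9.55% to 11.5%) than in wild type (15.6% to 16.5%).

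In the Pdha1 cohort, the group labelled activated and the group labelled resting did not separate for most of the 9 genes, and 2 libraries, Pdha1 KO resting 3 and wild type activated 3, stood apart from their groups in the 9-gene sum. The sum was 505, 449 and 355 RPM in activated Pdha1 KO libraries 1, 2 and 3, and 1174, 616 and 79.3 RPM in activated wild type libraries. Resting libraries had 103, 79.4 and 575 RPM in Pdha1 KO and 72.0, 55.4 and 84.99 RPM in wild type. Wild type activated 3 thus lay among the resting libraries, Pdha1 KO resting 3 above every activated Pdha1 KO library, and wild type activated 1 above every other library of the cohort. The plot of the sum against receptor-gene signal shows these libraries beside the rest.

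**Figure D3:**
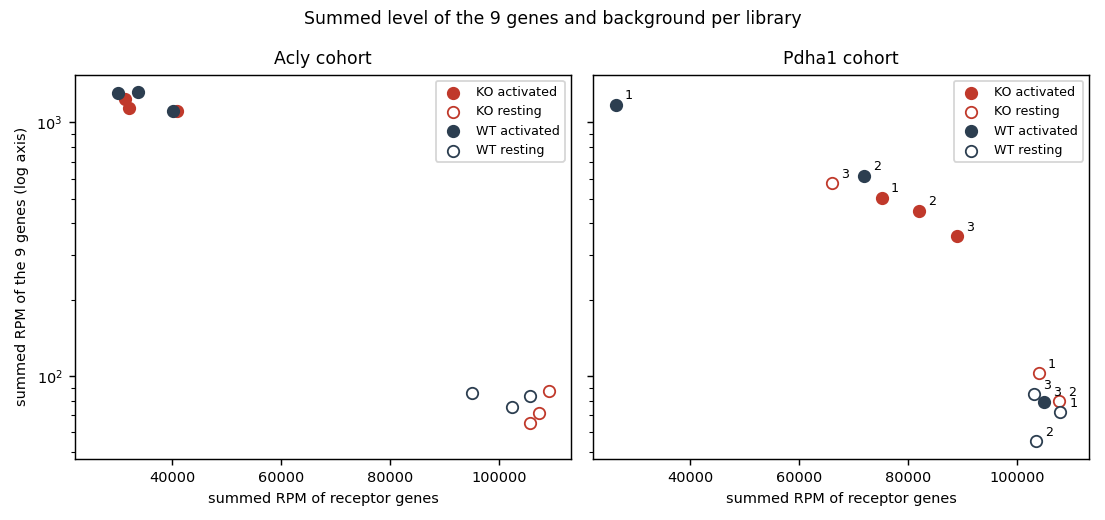
The 9-gene sum (RPM, log axis) against the total of Olfr and Vmn receptor genes (RPM), 1 point per library, by cohort, genotype and labelled state, with library numbers in the Pdha1 panel. Pdha1 KO resting 3 (575 RPM, 66035 RPM) lies beside activated libraries and wild type activated 3 (79.3 RPM, 105016 RPM) among resting ones.

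Cd69 had 104, 97.8 and 79.9 RPM in activated Pdha1 KO libraries and 462, 159 and 17.2 RPM in activated wild type libraries. At rest it had 13.2, 5.06 and 118 RPM in Pdha1 KO and 12.2, 7.32 and 9.77 RPM in wild type. All 3 activated Pdha1 KO libraries fell inside the range of the 3 activated wild type libraries.

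Tfrc had 60.4, 72.5 and 35.3 RPM in activated Pdha1 KO libraries and 235, 88.8 and 5.35 RPM in activated wild type libraries. Resting levels were 6.59, 10.1 and 92.2 RPM in Pdha1 KO and 10.2, 12.6 and 10.5 RPM in wild type. Resting wild type 3 carried the most erythroid signal of the cohort, 32781 RPM, with Tfrc at 10.5 RPM. Next came wild type activated 1 (29843 RPM, Tfrc 235 RPM) and Pdha1 KO resting 3 (27391 RPM, Tfrc 92.2 RPM). The part of erythroid cells in these Tfrc values was not tested.

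Cd44 had 62.6, 51.6 and 42.5 RPM in activated Pdha1 KO libraries, 182, 67.2 and 23.6 RPM in activated wild type, 17.6, 16.9 and 81.7 RPM in resting Pdha1 KO and 12.2, 6.27 and 21.8 RPM in resting wild type libraries. Icos had 75.5, 69.0 and 61.2 RPM in activated Pdha1 KO libraries and 70.9, 79.0 and 7.497 RPM in activated wild type libraries, with 13.9, 11.8 and 58.9 RPM in resting Pdha1 KO and 10.9, 9.41 and 12.8 RPM in resting wild type. For Icos, unlike Cd69, Tfrc and Cd44, wild type activated 1 was no higher than wild type activated 2.

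Tnfrsf4 had 66.4, 45.6 and 27.2 RPM in activated Pdha1 KO libraries and 77.8, 65.2 and 2.14 RPM in activated wild type libraries. At rest it had 3.66, 0 and 64.1 RPM in Pdha1 KO and 0.677, 1.04 and 2.25 RPM in wild type. Tnfrsf18 had 62.6, 44.7 and 41.7 RPM in activated Pdha1 KO, 50.2, 83.9 and 5.35 RPM in activated wild type, 13.2, 0 and 81.7 RPM in resting Pdha1 KO and 4.07, 3.14 and 5.26 RPM in resting wild type libraries. Without the 2 outlying libraries both were higher in every activated library than in every resting one. Those libraries stood apart in a sum that includes both genes, so this separation depends on a choice made with the values known. No share of all genes is given for it.

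Tnfrsf9 had 61.1, 56.8 and 58.7 RPM in activated Pdha1 KO and 75.5, 62.3 and 17.2 RPM in activated wild type libraries. Its resting levels were 30.9, 30.4 and 70.3 RPM in Pdha1 KO and 21.1, 15.7 and 18.8 RPM in wild type. All 3 resting Pdha1 KO libraries lay above all 3 resting wild type libraries, which held for 3.89% of all genes tested. Cd83 had 10.3, 8.55 and 8.78 RPM in activated Pdha1 KO and 18.2, 7.73 and 1.07 RPM in activated wild type libraries, against 2.93, 5.06 and 7.74 RPM in resting Pdha1 KO and 0.677, 0 and 3.75 RPM in resting wild type. Cd40lg was at 2.90 RPM or less in all 12 libraries and at 0 in all 3 resting wild type libraries, where the floor was 2.03 to 3.13 RPM.

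**Figure D4:**
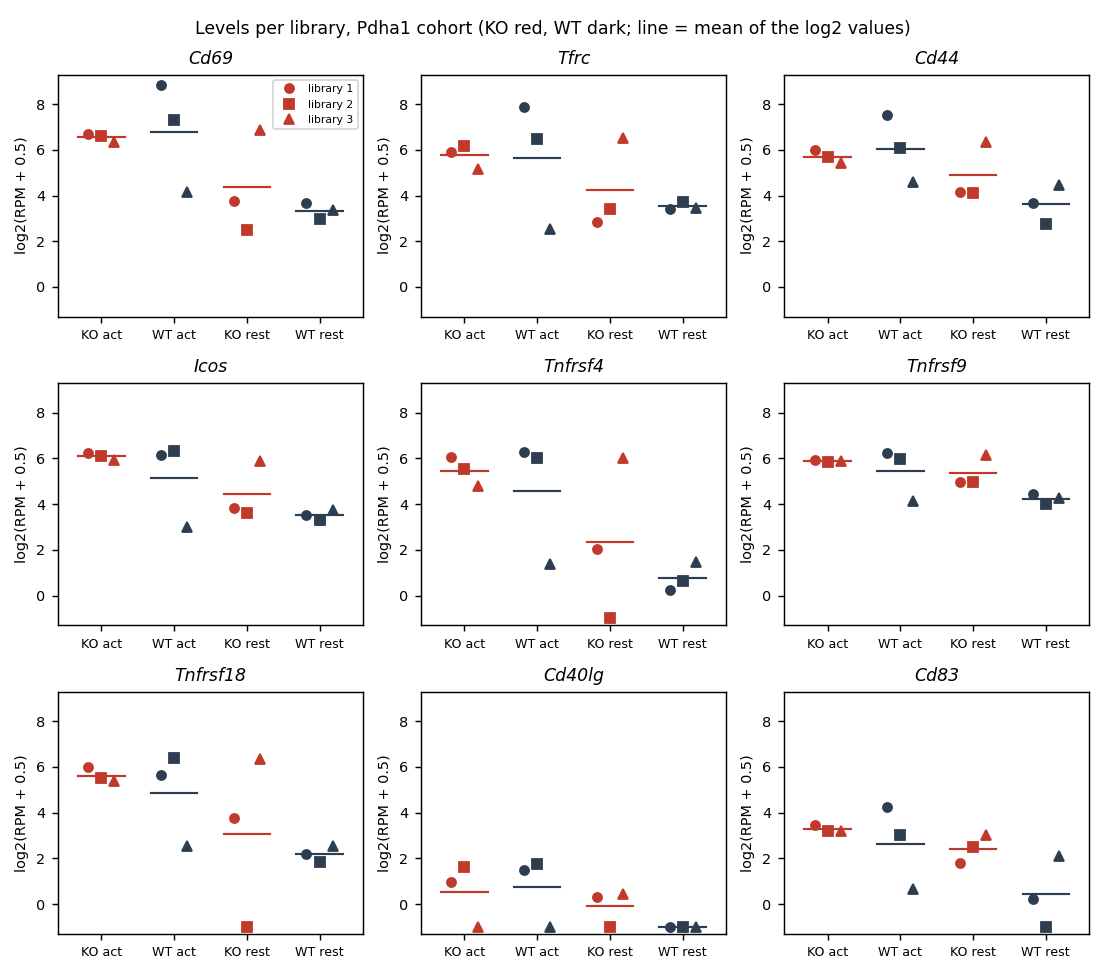
Level of each of the 9 genes as log2(RPM + 0.5) in the 12 libraries of the Pdha1 cohort, drawn likewise, with the marker shape giving the library number. Pdha1 KO resting 3 and wild type activated 3 are the highest and the lowest library of their own groups for each gene. Wild type activated 1 is the highest library for Cd69 (462 RPM), Tfrc (235 RPM), Cd44 (182 RPM), Tnfrsf4 (77.8 RPM), Tnfrsf9 (75.5 RPM) and Cd83 (18.2 RPM).

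With all 12 libraries, 0 of 9 genes were called by limma in either activation comparison of this cohort, against 0% of all 30357 genes tested. The adjusted p-values were 0.348 to 0.398 in wild type and 0.978 to 0.983 in Pdha1 KO cells. Unadjusted, 4 genes were under 0.05 in wild type by limma (Cd69, Cd44, Tnfrsf9 and Cd83) and 9 by edgeR. Over all 30357 genes, 4315 were under 0.05 unadjusted by limma and 4501 by edgeR. After adjustment edgeR called none of the 9 and DESeq2 called 6 (5.66% of all genes were called higher by DESeq2). In Pdha1 KO none was under 0.05 by any of the 3 tools. Activated libraries did not overlap resting ones for Cd69, Cd44 and Tnfrsf18 in wild type (5.87% of all genes) and for Icos and Cd83 in Pdha1 KO (3.47%).

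Without Pdha1 KO resting 3 and wild type activated 3, activation was called for 4 of 9 genes in Pdha1 KO and 9 of 9 in wild type cells. Over the 29032 genes of that fit, 7% were called higher in Pdha1 KO and 14.9% in wild type. The 2 libraries stood apart in the 9-gene sum itself, so these calls depend on a choice made with the tested values known. The same holds for the genotype differences given below without these libraries. In Pdha1 KO the log2 changes were 3.43 ± 0.46 for Cd69, 2.64 ± 0.44 for Tfrc, 2.37 ± 0.36 for Icos and 4.93 ± 0.71 for Tnfrsf4. Values that missed the threshold were 1.55 ± 0.48 for Cd44 (limma adjusted p = 0.0577), 4.24 ± 1.11 for Tnfrsf18 (0.0566), 0.93 ± 0.34 for Tnfrsf9 (0.124) and 1.15 ± 0.80 for Cd83 (0.459).

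In wild type cells the same fit gave 4.75 ± 0.46 for Cd69, 3.65 ± 0.44 for Tfrc, 3.16 ± 0.48 for Cd44 and 2.72 ± 0.36 for Icos. The TNF receptor genes had 5.39 ± 0.71 (Tnfrsf4), 1.87 ± 0.34 (Tnfrsf9) and 3.84 ± 1.11 (Tnfrsf18), and Cd83 had 3.19 ± 0.80. Cd40lg passed as well (limma adjusted p = 0.0363), on 1 and 3 counts in the 2 activated libraries and 0 in all resting ones, so its level stayed at or under the floor. When wild type activated 1 was left out too, 6 genes were called in each genotype (8.22% of all genes higher in Pdha1 KO and 7.34% in wild type), with the single remaining wild type activated library assumed to vary like the other groups. These were Cd69, Tfrc, Cd44, Icos, Tnfrsf4 and Tnfrsf9 in both genotypes.

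**Figure D5:**
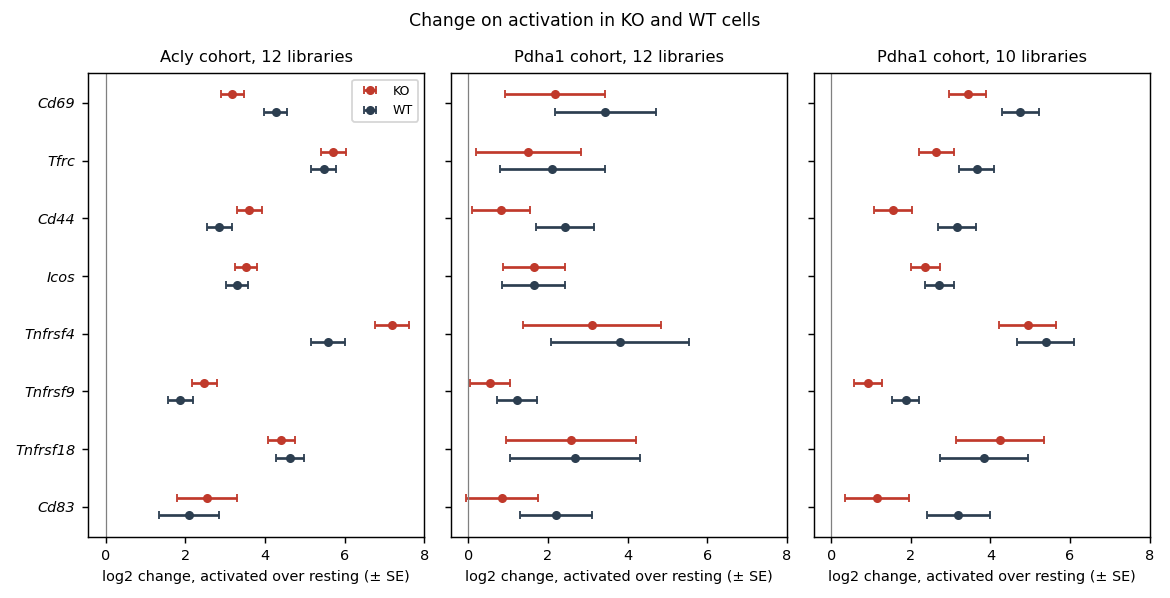
Log2 change with activation (activated over resting, limma on log2(RPM + 0.5), bars 1 SE) of 8 genes, Cd40lg being left out, in KO and wild type cells of the Acly cohort, the Pdha1 cohort with 12 libraries, and the Pdha1 cohort with the 10 libraries that remain without Pdha1 KO resting 3 and wild type activated 3. Leaving those 2 libraries out moves Cd69 to 3.43 in Pdha1 KO and 4.75 in wild type cells of that cohort.

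Loss of Pdha1 gave no call among the 9 genes in either state. In activated cells 0 of 9 were called with all 12 libraries (0% of all genes), none was under an unadjusted 0.05 by limma, edgeR or DESeq2, and the signs depended on wild type activated 3. Cd69, for example, averaged 94.0 ± 12.7 RPM in Pdha1 KO and 213 ± 227 RPM in wild type activated libraries (SD, n = 3 each), a log2 difference of -0.22 ± 1.27. Without the 2 outlying libraries all 9 fitted differences were below 0, against a median of 0.35 over all genes. Of the 9, 3 were under 0.05 unadjusted, as were 5110 of all 29032 genes of that fit. The 3 genes were Cd69 at -1.53 ± 0.46 (limma adjusted p = 0.225), Tfrc at -1.42 ± 0.44 (0.225) and Cd44 at -1.09 ± 0.48 (0.264). After adjustment 0.00689% of all genes were called. Without wild type activated 1 as well, Cd69 was at -0.76 ± 0.45, Tfrc at -0.72 ± 0.45 and Cd44 at -0.38 ± 0.49, and none was under 0.05 unadjusted.

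In resting cells 0 of 9 were called by limma (0% of all genes), edgeR or DESeq2. Under an unadjusted 0.05 there were 2 of the 9 by limma, 2 by edgeR and 4 by DESeq2. Over all 30357 genes there were 636 by limma, 817 by edgeR and 942 by DESeq2. The 2 of the 9 by limma were Tnfrsf9 (log2 1.12 ± 0.50, limma adjusted p = 1.00) and Cd83 (1.99 ± 0.90, adjusted p = 1.00). They stayed above 0 and uncalled without the 2 outlying libraries (0.00344% of all genes called, and 0.0175% without 3 libraries), at 0.72 ± 0.34 for Tnfrsf9 and 1.69 ± 0.80 for Cd83, while Cd69, Tfrc, Tnfrsf4 and Tnfrsf18 turned below 0. The interaction of genotype and activation called 0 of 9 (0% of all genes). Its values ran from -1.61 ± 1.04 for Cd44 to 0.01 ± 1.11 for Icos. DESeq2 alone placed 3 of the 9 under an unadjusted 0.05, and limma and edgeR none. Over all 30357 genes, DESeq2 placed 1242 there, limma 701 and edgeR 870.

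Between the 2 genotype effects in activated cells, the Acly effect minus the Pdha1 effect, 0 of 9 genes were called in a fit of all 24 libraries (0% of 35290 genes), and none was under an unadjusted 0.05 by limma, edgeR or DESeq2. The difference ran from -1.41 ± 1.90 for Tnfrsf4 to 0.77 ± 0.82 for Cd44, with 2 of 9 above 0 and a median of -0.33, against -0.30 over all genes. The signs rested on the outlying libraries: without 2 of them all 9 differences were above 0 (median 0.67, against -0.36 over all genes). Tfrc and Cd44 were under 0.05 unadjusted there and none was called. Of all 34664 genes of that fit, 3736 were under 0.05 unadjusted. Without 3 libraries all 9 were again above 0 (median 0.49, against -0.016 over all genes), with none under 0.05 unadjusted. Cohort, knockout and Cre line coincide in this design, so they cannot be told apart.

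Set in order of group mean, the 4 activated groups came before the 4 resting groups for all 9 genes, Cd40lg at 1.98 RPM or less among them, and few neighbours in that order were separated. Cd69 was highest in Pdha1-cohort wild type activated cells (213 RPM), which overlapped Acly-cohort wild type activated cells (199 RPM). All Acly-cohort wild type activated libraries lay above those of Acly KO activated cells (119 RPM), which in turn all lay above Pdha1 KO activated cells (94.0 RPM). Icos ran from Acly KO activated (234 RPM) through Acly-cohort wild type activated (192 RPM) to Pdha1 KO activated cells (68.5 RPM), each wholly above the next. Tnfrsf9 had the same order at 91.9, 69.0 and 58.9 RPM, also without overlap. No share of all genes is given for the steps between cohorts. Receptor-gene signal differed there too, at 30009 to 40831 RPM in activated Acly-cohort and 75144.5 to 88998 RPM in Pdha1 KO activated libraries. Its part in these steps was not tested. Cd44, Cd83 and Cd40lg had no 2 neighbouring groups that were separate.

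Other genes of the same pathways are counted here for activation in the Acly cohort, against 20.7% of all genes higher and 26.7% lower in Acly KO and 21.4% higher and 23.8% lower in wild type. Of 19 tested TNF receptor family members and ligands of T cells, 9 rose and 2 fell with activation in Acly KO, and 8 rose and 1 fell in wild type, with median log2 changes of 1.42 in Acly KO and 1.21 in wild type, against the all-gene medians given above. Tnf, the founding cytokine of the family, averaged 41.3 ± 5.09 RPM in activated and 0.801 ± 0.696 RPM in resting Acly KO libraries, and 45.5 ± 4.35 RPM in activated and 0.387 ± 0.669 RPM in resting wild type libraries. Lta, lymphotoxin alpha, averaged 43.6 ± 0.876 RPM in activated and 0.420 ± 0.728 RPM in resting Acly KO libraries. Tnfsf8, the CD30 ligand, averaged 51.7 ± 14.1 RPM in activated and 6.42 ± 1.84 RPM in resting Acly KO libraries.

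Among 18 TRAF adaptors and NF-kappaB genes, which carry the signal of OX40, 4-1BB and GITR inward, 10 rose and 1 fell in Acly KO and 9 rose and 1 fell in wild type (median log2 change 1.97 in Acly KO and 1.53 in wild type). Nfkb2, a subunit of the non-canonical NF-kappaB pathway, averaged 249 ± 25.5 RPM in activated and 5.40 ± 0.869 RPM in resting Acly KO libraries, and 240 ± 28.8 RPM in activated and 6.63 ± 2.02 RPM in resting wild type libraries. Nfkbia, the inhibitor that NF-kappaB induces, averaged 154 ± 13.7 RPM in activated and 22.0 ± 2.96 RPM in resting Acly KO libraries. The adaptor Traf5 went the other way, with 358 ± 69.3 RPM in activated and 1148 ± 130.1 RPM in resting Acly KO libraries, and 334 ± 32.4 RPM in activated and 1065 ± 103 RPM in resting wild type libraries.

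Of 16 immunoglobulin-family costimulators and SLAM receptors, 9 rose and 3 fell in Acly KO, and 9 rose and 1 fell in wild type (median log2 change 1.24 in Acly KO and 1.34 in wild type). Cd200, a ligand that restrains myeloid cells, averaged 142 ± 9.90 RPM in activated and 7.27 ± 1.43 RPM in resting Acly KO libraries. Cd6 averaged 178 ± 28.3 RPM in activated and 9.73 ± 4.08 RPM in resting Acly KO libraries, and Cd5, a brake on T cell receptor signalling, 78.0 ± 3.17 RPM in activated and 9.21 ± 0.946 RPM in resting ones.

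Of 15 iron-handling genes, 6 rose and 3 fell in Acly KO and 8 rose and 3 fell in wild type, where 26.7% of all genes fell in Acly KO and 23.8% in wild type (median log2 change 0.35 in Acly KO and 0.91 in wild type). Pcbp1, an iron chaperone and RNA-binding protein, averaged 735 ± 16.7 RPM in activated and 45.8 ± 8.37 RPM in resting Acly KO libraries, and Ftl1, the ferritin light chain, averaged 559 ± 88.9 RPM in activated and 91.0 ± 28.3 RPM in resting ones. Pcbp2 averaged 673 ± 13.6 RPM in activated and 110.0 ± 16.0 RPM in resting Acly KO libraries.

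Partners of CD69 and CD44 were mixed, with 7 of 13 identifiers higher and 2 lower in Acly KO and 6 higher and 3 lower in wild type, against the same shares of all genes (median log2 change 1.11 in Acly KO and 0.60 in wild type). The 13 identifiers stand for 12 gene symbols, and Myl9 was not found. S1pr1, the egress receptor that CD69 pulls from the surface, averaged 8.25 ± 1.26 RPM in activated and 65.2 ± 11.8 RPM in resting Acly KO libraries, and 6.22 ± 1.61 RPM in activated and 66.7 ± 27.3 RPM in resting wild type libraries. Rdx, which anchors CD44 to actin, averaged 158 ± 26.6 RPM in activated and 16.0 ± 4.61 RPM in resting Acly KO libraries, and Myl12a, a myosin light chain, 150 ± 12.9 RPM in activated and 16.5 ± 0.524 RPM in resting ones. No gene of these 5 lists was called between genotypes in either state of the Acly cohort, nor in any comparison of the Pdha1 cohort with all 12 libraries.

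The genes whose pattern over the 24 libraries was closest to the mean of the 9 were not surface proteins. Among 16017 genes with a mean of at least 5 RPM, the smallest root mean square differences of centred log2 values were those of Hnrnpa1 (0.199), Hnrnpc (0.234), Vcp (0.258), Hnrnpa3 (0.293) and Mrfap1 (0.295). Hnrnpa1, an RNA-binding protein, averaged 391 RPM in activated and 28.1 RPM in resting Acly KO libraries, and 432 RPM in activated and 38.5 RPM in resting Acly-cohort wild type libraries. All 24 libraries share the split into activated and resting cells, and nothing is read from the likeness beyond the values.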

How the data were processed

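The authors deposited 1 table of RPM values, reads scaled to 1000000 per library, for 46981 genes in 24 libraries. Per the labels' protocols, a stranded total RNA kit with ribosomal and globin depletion was used, with single-end reads of 75 bp. GRCm38 and mm10 are the builds listed in the submitters' processing notes. Which aligner, counter and annotation were used is not given in the sources used here. All 678237 values above 0 became whole counts (tolerance 0.01) once a collision correction for 4096 identifiers of 6 bases was inverted. The labels name no molecular identifiers, so the library type is unclear. The highest count of a member gene was 510.

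Symbols came from GENCODE release M21 (46206 identifiers matched, 775 did not). Promoter windows came from RefSeq on GRCm38.p6. The members and lists were chosen with earlier results of these data known. Per list, up to 3 genes with the smallest p in the Acly-cohort wild type activation comparison were named, and the 5 genes closest in pattern to the members.

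Tests used limma 3.58.1 (R 4.3.3, trend and robust) on log2(RPM + 0.5), over genes reaching 1 RPM in 3 or more libraries, with Benjamini-Hochberg adjustment over all genes tested at 0.05. The 12 libraries of a cohort entered 1 fit, and the contrast between cohorts used all 24. Fold changes on this scale understate the change of low genes. Alternatives were tests of the recovered counts with DESeq2 1.42.0 or with edgeR 4.0.16, other pseudocounts, filters and scaling, fits of the groups compared, the replicate block and leaving libraries out. Scripts were tested on simulated data. Between Pdha1 KO activated and wild type activated cells only, all 3 same-numbered correlations of deviations from the group means passed 0.1 (0.369, 0.120 and 0.516). Even there, Pdha1 KO library 2 correlated best with wild type library 1. In the Acly cohort, each library correlated best with its own number between genotypes at rest and with activation in each genotype (0.0455 to 0.2335). Pairing by number was therefore not settled. The labels do not say what a shared number stands for.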

Additional observations from a re-analysis of the deposited data

How the results depend on the processing

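Counts of called genes stayed within 1.5 times of the reported value in 113 combinations of comparison and setting that left out no single replicate, and moved in 7. The 7 were 1 gene between Acly KO and wild type activated cells when those groups alone were fitted (Cd69), 1 gene at rest in that cohort with no filter on low values (Tnfrsf4), 6 genes with DESeq2, 9 without the 2 outlying Pdha1-cohort libraries and 6 without 3 libraries in wild type activation of the Pdha1 cohort, and 4 and 6 genes without those 2 and 3 libraries in Pdha1 KO activation. Leaving out 1 replicate at a time gave 0 to 1 genes at rest in the Acly cohort. It gave 0 to 6 genes for wild type activation in the Pdha1 cohort, the 6 without wild type activated 3 (9.48% of all genes called higher). With the replicate block, 8 genes were called in each activation comparison of the Acly cohort and 0 in every other comparison, so the block changed no count. For single genes named with their values, 692 values kept their direction and call, 32 became called, 2 lost their call and 32 changed sign. The causes were not tested.

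All 32 sign changes were in comparisons that use the Pdha1 cohort. For Pdha1 KO against wild type activated cells, edgeR gave log2 values of -0.92 for Tfrc and -0.021 for Tnfrsf4, and DESeq2 gave -1.34 for Tfrc, -0.35 for Tnfrsf4, -0.065 for Tnfrsf9, -0.13 for Tnfrsf18 and -0.19 for Cd83. Without the 2 libraries the values were -1.42 for Tfrc, -0.13 for Icos, -0.70 for Tnfrsf4, -0.22 for Tnfrsf9, -0.41 for Tnfrsf18 and -0.36 for Cd83. Without the 3 libraries they were -0.72 for Tfrc, -0.21 for Icos, -0.58 for Tnfrsf4, -0.081 for Tnfrsf9 and -0.77 for Tnfrsf18. At rest, leaving out the 2 or the 3 libraries gave -0.21 for Cd69, -0.41 for Tfrc, -0.25 for Tnfrsf4 and -0.80 for Tnfrsf18. The Pdha1 interaction of Icos was -1.08 with edgeR, -1.38 with DESeq2, -0.35 without the 2 and -0.43 without the 3 libraries. The difference between cohorts for Tnfrsf4 became 0.17 without the 2 and 0.048 without the 3 libraries, where all 9 genes were above 0.

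With 1 replicate left out at a time, 29 values changed sign. In Acly KO against wild type cells, Cd83 ran from -0.013 to 0.73 when activated, and at rest Tfrc ran from -0.60 to 0.10, Icos from -0.10 to 0.39, Tnfrsf9 from -0.47 to 0.19 and Tnfrsf18 from -0.34 to 0.31. In Pdha1 KO against wild type activated cells the ranges were -1.53 to 0.83 for Cd69, -1.42 to 1.24 for Tfrc, -1.09 to 0.37 for Cd44, -0.13 to 1.53 for Icos, -0.70 to 1.74 for Tnfrsf4, -0.22 to 0.83 for Tnfrsf9, -0.41 to 1.52 for Tnfrsf18 and -0.36 to 1.43 for Cd83. At rest they were -0.21 to 2.00 for Cd69, -0.41 to 1.44 for Tfrc, -0.25 to 3.26 for Tnfrsf4 and -0.80 to 2.88 for Tnfrsf18. The Pdha1 interaction of Icos ran from -1.07 to 0.73, and the cohort difference of Tnfrsf4 from -2.27 to 0.17.

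Depth limits Cd40lg and Cd83 everywhere and Tnfrsf4 at rest, where a level under 3 counts cannot be told from 0. A fit of the groups compared alone gives no separate value for the interactions, which use all 4 groups.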
